A study of Mus musculus with 6 samples.

Results

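The mitochondrial respiratory chain genes were all rows of the deposited expression tables whose symbols start with Ndufa, Ndufb, Ndufc, Ndufs, Ndufv, Sdha, Sdhb, Sdhc, Sdhd, Uqcr, Cox4i, Cox5, Cox6, Cox7, Cox8 or Atp5, leaving out the Ndufaf assembly factors. The rule found 84 of 13278 rows, by name alone. By function, 36 of them encode nuclear subunits of complex I, 4 of complex II, 8 of complex III, 16 of complex IV (with Ndufa4) and 16 belong to ATP synthase, complex V. The last group includes Atp5s, a coupling factor. The remaining 4 are Sdhaf1, Sdhaf2, Sdhaf3 and Sdhaf4, which the prefix Sdha brings in. They assemble complex II and are not subunits of it.

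The respiratory chain sits in the inner mitochondrial membrane. Complexes I and II pass electrons from NADH and succinate to ubiquinone, complex III passes them on to cytochrome c, and complex IV hands them to oxygen. Proton pumping by complexes I, III and IV drives ATP synthesis by complex V. Most subunits are made from nuclear genes in the cytosol, while a small core set is encoded by mitochondrial DNA. Haematopoietic stem cells are known for relying less on respiration than the dividing progenitors that derive from them.

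Single cells were taken from sorted blood-forming populations of C57BL/6 mice and sequenced as 6 libraries, 1 per group, by a modified Smart-seq2 method that counts the 3' ends of transcripts. HSC1 and HSC2 are gates for stem cells, HPC1 is a gate for progenitor cells, MPP2 and MPP4 are multipotent progenitors, and the surface proteins CD201 and CD48 divide these gates. The double-negative library (76 cells) came from the CD201-CD48- part of both HSC1 and HPC1. Into the HSC1 library (84 cells) went the CD201+CD48- part of HSC1 and its CD48+ part. The HPC1 library (82 cells) was made up of the matching parts of HPC1. Besides MPP2, the MPP2-containing library (80 cells) included HPC1 cells negative for both proteins and the CD48+ parts of HPC1 and HSC1. CD48+ cells of the HSC2 gate were combined with MPP4 in the HSC2/MPP4 library (89 cells). The CD48-negative HSC2 library (86 cells) took the CD48- part of HSC2, both its CD201+ and its CD201- cells. The first 4 libraries are from mice of 8 to 10 weeks with the molecule given as polyA RNA, and the last 2, deposited as tables of their own, from mice of 8 weeks with total RNA. Spleen is the labelled tissue of the HSC1 and HPC1 libraries and bone marrow that of the other 4, while the title names bone marrow only. No genetic change or treatment is given for any group, and the number of mice is not given in the sources used here.

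A cell can be traced to its library but not to the gate it was sorted from, so values are given per library. Library, tissue label, RNA label, gates and depth cannot be told apart. The 6 libraries hold 497 cells, and library order below is the order in which they were just described. The first 4 hold 322 cells, beside 324 cells of 7 populations in the design text, which names neither HSC2 nor MPP4. The median cell had 105225, 63093, 112832, 145496, 35977 and 23540 counts in library order. Cells are numbered within each library and the same numbers recur, with no barcodes given, so shared cells could not be counted. Summed over 23 HSC genes, the level in library order was 4172, 5747, 4183, 2018, 2019 and 5684 counts per 1000000 counts of the library (CPM). It was lowest in the 2 libraries with multipotent progenitors.

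All 84 genes have a position in GENCODE vM21 on the mm10 (GRCm38) genome, spread over 19 chromosomes with 3 on X. Of the 84, 54 share no 50-base stretch of their last 300 transcript bases with a transcript of another gene. For 6 genes at least 50% of these stretches also occur elsewhere, so their 3' counts are uncertain: Ndufs3, Cox7c, Atp5o, Atp5h, Atp5l and Atp5g2. Atp5o is annotated with a read-through into Donson, and Atp5l shares its 3' end with 11 other genes.

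Promoters of 71 of the 84 genes were found in the RefSeq promoter table (GRCm38.p6), each from 250 bases before to 50 bases after a transcript start. They are described because the summed members differed between cells in the same direction in every library. Sites were searched on both strands as GCGCATGC for the factor NRF1, CCGGAAGT for ETS factors and AAGATGGC for YY1, factors known for nuclear genes of mitochondria. The NRF1 letters occurred in 10 of 71 member promoters (14.1%), against 3.05% of all 27025 genes of the table and 5.87% of those with a row in the expression tables. These 10 are Ndufa6, Ndufa8, Ndufa11, Sdhb, Uqcr11, Uqcrc1, Cox6a1, Atp5g2, Atp5k and Atp5l. The YY1 letters also occurred in 10 (14.1%), against 3.19% of all genes and 5.10% of genes with a row. Of the 10, 7 encode complex I subunits (Ndufa3, Ndufa9, Ndufb8, Ndufc1, Ndufs4, Ndufs6 and Ndufs7) and 3 ATP synthase subunits (Atp5f1, Atp5j and Atp5j2). The ETS letters occurred in 5 (7.04%: Ndufs3, Uqcr11, Uqcrh, Cox8a and Atp5h), against 4.31% and 8.87%. In all, 24 of the 71 hold at least 1 of the 3, against 9.91% of all genes. That share was not counted for genes with a row. The letters were not particular to the members. Mitochondrial ribosomal protein genes (68 promoters) had 11.8% for NRF1, 17.6% for YY1 and 17.6% for ETS. Proteasome genes (32) had 6.25%, 9.38% and 18.8%, and cytosolic ribosomal protein genes (65) had 4.62%, 9.23% and 18.5%. A match is a stretch of letters and not a measured site.

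The 3 promoters with capitals belong to the most abundant member with each motif, and capitals mark the matched letters. The pair Cox7a2 and Cox7a2l is shown because these paralogues differed in opposite directions between cells. None of the 3 motifs occurs in either of their windows. All 5 lie on the minus strand and are written 5' to 3' in the direction of transcription: Atp5k at chr5:108434350-108434649, Cox8a at chr19:7217567-7217866, Atp5j at chr16:84834927-84835226, Cox7a2 at chr9:79759804-79760103 and Cox7a2l at chr17:83514284-83514583. In Atp5k, a forward and a reverse NRF1 match overlap in 1 palindrome.
Atp5k: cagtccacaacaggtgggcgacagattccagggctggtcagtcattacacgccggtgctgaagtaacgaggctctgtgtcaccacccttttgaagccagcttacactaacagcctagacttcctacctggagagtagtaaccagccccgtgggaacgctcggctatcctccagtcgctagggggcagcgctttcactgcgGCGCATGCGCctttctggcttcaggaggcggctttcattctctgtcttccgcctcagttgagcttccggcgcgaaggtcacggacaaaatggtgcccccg
Cox8a: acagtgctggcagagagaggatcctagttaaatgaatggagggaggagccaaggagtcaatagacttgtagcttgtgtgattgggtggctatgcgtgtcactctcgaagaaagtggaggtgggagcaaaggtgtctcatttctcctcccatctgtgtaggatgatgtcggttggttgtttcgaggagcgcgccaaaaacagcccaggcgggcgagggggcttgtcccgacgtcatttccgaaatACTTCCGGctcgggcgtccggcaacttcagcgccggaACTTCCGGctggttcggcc
Atp5j: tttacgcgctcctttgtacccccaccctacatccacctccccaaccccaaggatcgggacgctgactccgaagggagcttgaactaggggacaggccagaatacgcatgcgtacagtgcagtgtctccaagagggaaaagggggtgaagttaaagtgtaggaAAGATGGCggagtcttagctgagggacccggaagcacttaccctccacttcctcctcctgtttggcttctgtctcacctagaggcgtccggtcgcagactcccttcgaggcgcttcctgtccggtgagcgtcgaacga
Cox7a2: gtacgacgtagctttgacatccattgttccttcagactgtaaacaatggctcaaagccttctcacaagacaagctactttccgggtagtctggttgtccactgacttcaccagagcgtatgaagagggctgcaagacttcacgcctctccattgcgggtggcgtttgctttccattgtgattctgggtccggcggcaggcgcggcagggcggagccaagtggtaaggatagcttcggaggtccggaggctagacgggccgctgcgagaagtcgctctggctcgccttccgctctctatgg
Cox7a2l: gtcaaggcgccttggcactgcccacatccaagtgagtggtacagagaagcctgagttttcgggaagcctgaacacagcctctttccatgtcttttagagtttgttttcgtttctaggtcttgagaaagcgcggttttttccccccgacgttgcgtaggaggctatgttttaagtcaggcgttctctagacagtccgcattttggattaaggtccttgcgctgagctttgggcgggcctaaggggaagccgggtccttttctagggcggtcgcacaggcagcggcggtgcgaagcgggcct

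Together the 84 genes took up 3.80% of all counts in the double-negative library, 3.62% in HSC1, 4.12% in HPC1, 4.42% in MPP2-containing, 3.38% in HSC2/MPP4 and 2.57% for CD48-negative HSC2. The 95% counting intervals of these 6 sums, from 25507 to 25885 CPM in CD48-negative HSC2 to 44120 to 44333 CPM in MPP2-containing, do not overlap. Counting error is only part of the error, since each group is 1 library. The median cell gave the same order, with 3.55%, 3.30%, 3.75%, 4.09%, 2.85% and 2.41% of its counts. This was also the order of depth, from a median of 145496 counts per cell in MPP2-containing to 23540 in CD48-negative HSC2. The part of depth in the order of libraries was not tested. Cells overlapped widely between libraries: the range was 2.21 to 5.82% in MPP2-containing and 0.741 to 3.93% in CD48-negative HSC2. Within a library the share varied with a coefficient of variation of 16.7 to 24.1%, and its variance was 31.9 to 338 times that of counting alone. The 1 cell that contributed most held 12.4% of the member counts of HSC2/MPP4 and 4.95 to 9.06% in the other 5 libraries.

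**Figure D1:**
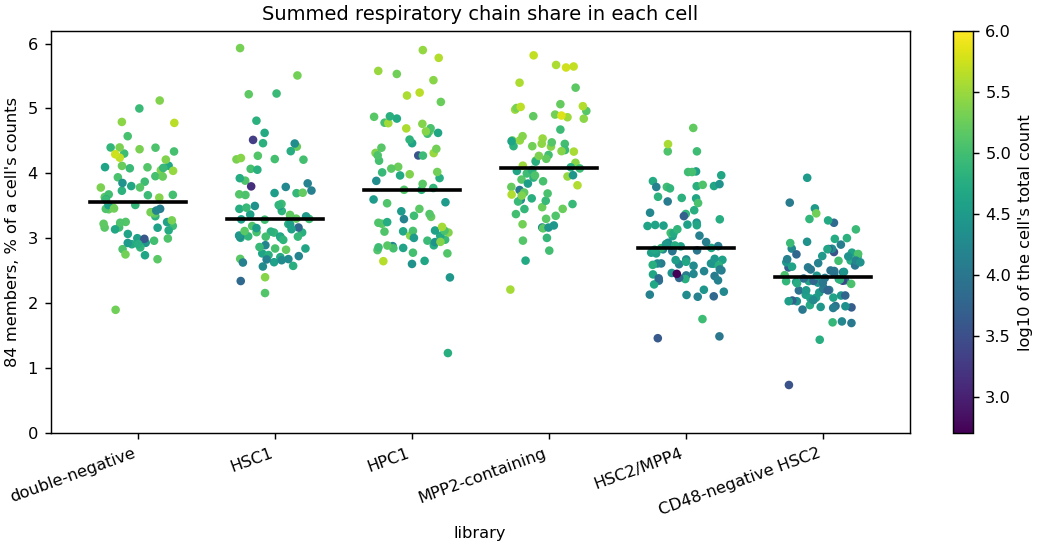
Share of each cell's counts taken by the 84 respiratory chain genes (vertical axis, %), 1 point per cell, with cells grouped by library (horizontal axis), the median as a black line and the colour giving log10 of the cell's total count. Medians run from 2.41% in CD48-negative HSC2 to 4.09% in MPP2-containing, and the cells of all 6 libraries overlap.

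Most genes shared the lowest library but not the highest. CD48-negative HSC2 had the lowest level for 61 of 84: 27 of 36 in complex I, 3 of 4 in complex II, 6 of 8 in complex III, 12 of 16 in complex IV and 12 of 16 in complex V. MPP2-containing had the highest level for 37 and HPC1 for 18. HSC2/MPP4 had it for 13. For the median gene the highest library stood 1.86-fold above the lowest, over the genes counted in every library. In the ordered levels of a gene, a median of 3 of the 5 steps between neighbours exceeded both counting intervals.

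**Figure D2:**
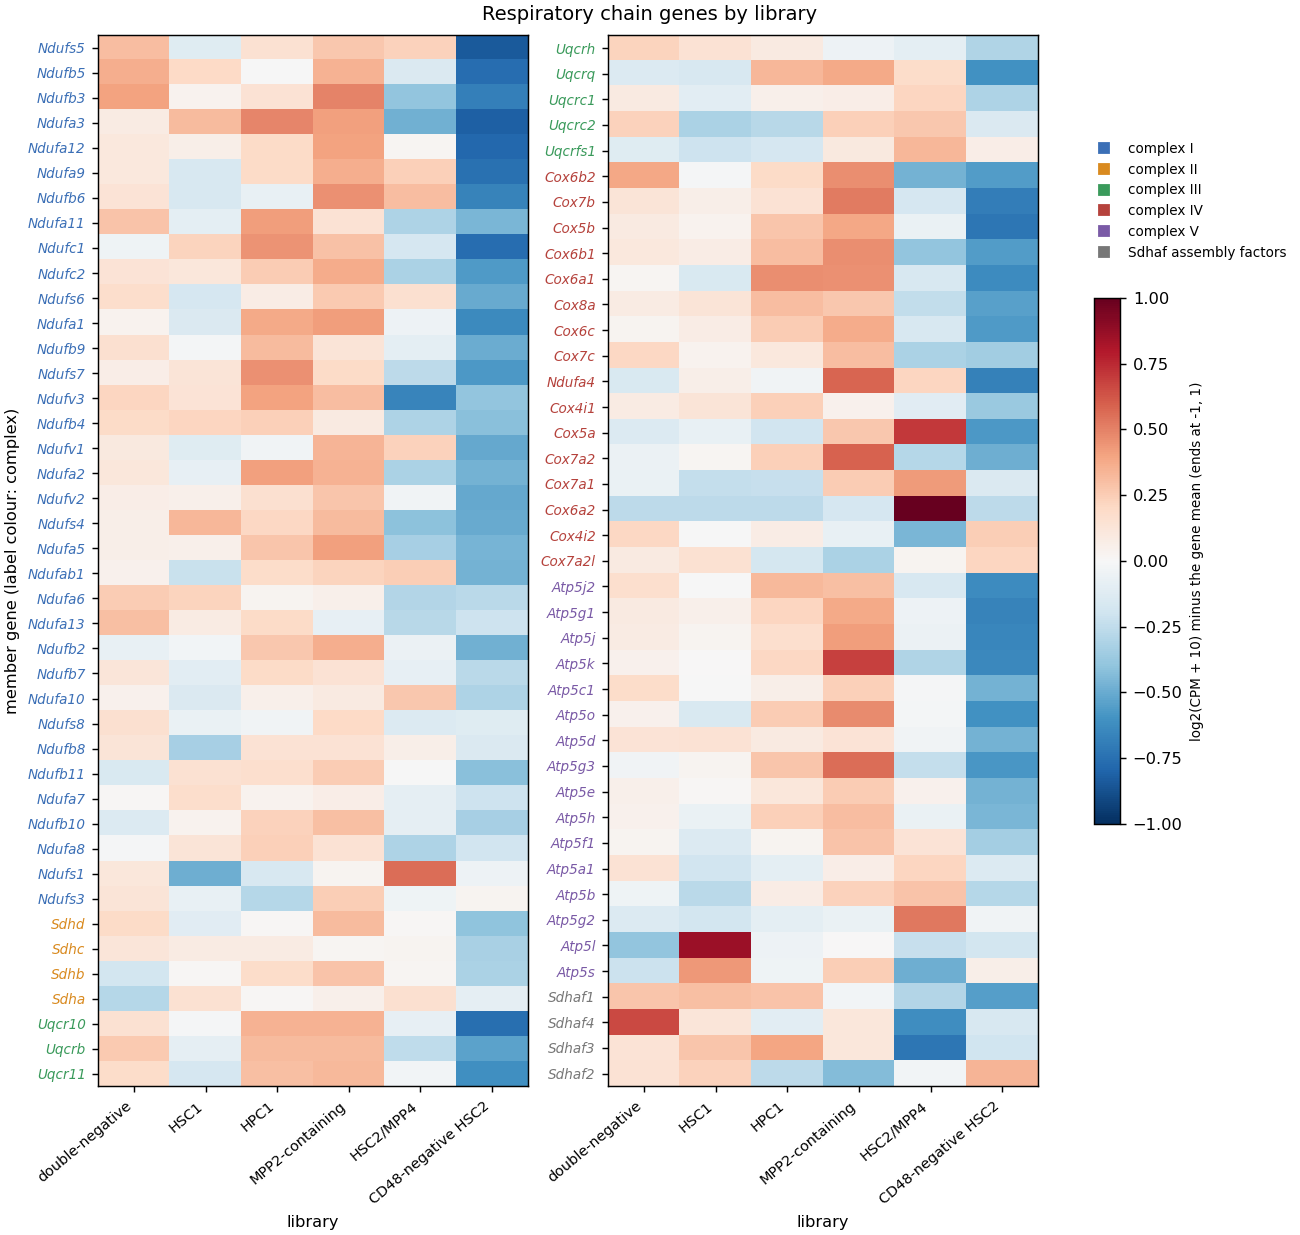
Level of 83 of the 84 genes (rows, grouped by complex through the label colour) in the 6 libraries (columns), as log2(CPM + 10) minus the gene's mean over the libraries, with the colour scale ending at -1 and 1. The column of CD48-negative HSC2 is the lowest for 61 genes, and Cox7a2l, Sdhaf2 and Cox4i2 are the 3 genes with their highest level there.

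In complex I, core subunits encoded in the nucleus carry the flavin and the iron-sulphur clusters. Ndufv1, which binds NADH, was at 155 in double-negative, 132 in HSC1, 140.04 in HPC1, 184 in MPP2-containing, 171 in HSC2/MPP4 and 98.2 for CD48-negative HSC2 (CPM). Its partner Ndufv2 was at 362, 358, 388, 421, 336 and 239 CPM in the same library order. Both were lowest in CD48-negative HSC2 and highest in MPP2-containing. Ndufs1, the largest iron-sulphur subunit, was at 73.9, 45.1, 59.2, 68.8, 104 and 64.8 CPM and was highest in HSC2/MPP4. Among subunits of the arm that reduces ubiquinone, Ndufs3 was at 153, 131, 112, 167, 135 and 142 CPM and Ndufs8 at 366, 312, 319, 376, 296 and 299 CPM, both highest in MPP2-containing. Ndufs7 was at 475, 494, 623, 518, 375 and 299.8 CPM and had its peak in HPC1.

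Accessory subunits of complex I held its largest differences. Ndufs5 (gene at chr4:123712710-123718202, minus strand), a small subunit on the intermembrane side, was at 97.7 in double-negative, 69.8 in HSC1, 86.5 in HPC1, 94.7 in MPP2-containing, 92.0 in HSC2/MPP4 and 38.5 for CD48-negative HSC2 (CPM). The level in CD48-negative HSC2 (95% counting interval 31.6 to 46.5) lay below those of the other 5 libraries without overlap. With cells thinned to 10000 counts it was found in 12 of 66 cells there (18.2%, exact binomial interval 9.76 to 29.6%), and in 31 of 80 HSC1 cells (38.8%) to 43 of 80 MPP2-containing cells (53.8%). Without thinning it was found in 27 of 86 and in 62 of 84 to 73 of 80 cells. Of its 3' stretches, 47.8% also occur in the predicted gene BC002163. Ndufb5 and Ndufb3, accessory subunits of the membrane arm, were at 309, 274, 237, 306, 215 and 136 CPM and at 472, 365, 394, 504, 268 and 217 CPM in library order. For both, the 2 later libraries were the lowest.

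Complex II, succinate dehydrogenase, is the one complex with no subunit encoded by mitochondrial DNA, and it also works in the citric acid cycle. Its flavoprotein Sdha was at 161 in double-negative, 221 in HSC1, 200.2 in HPC1, 205 in MPP2-containing, 222 in HSC2/MPP4 and 186 for CD48-negative HSC2 (CPM), lowest in double-negative. The iron-sulphur subunit Sdhb was at 273, 314, 354, 380.04, 314 and 248 CPM. The membrane anchors Sdhc and Sdhd were at 191, 186, 186, 177, 178 and 138 CPM and at 202, 162, 177, 222, 178 and 131 CPM. Sdhb, Sdhc and Sdhd were lowest in CD48-negative HSC2, whereas Sdha was not. The assembly factor Sdhaf2, which inserts the flavin into Sdha, was at 75.5, 80.3, 54.4, 47.3, 65.7 and 87.8 CPM. Its highest library was CD48-negative HSC2, where most subunits were lowest, and its lowest was MPP2-containing.

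In complex III, the Rieske iron-sulphur protein Uqcrfs1 was at 210.1, 197, 203, 246, 292 and 240.03 CPM and the core protein Uqcrc2 at 104, 68.0, 70.1, 104, 107 and 77.7 CPM in library order. Uqcrq, a small accessory subunit, was at 408 in double-negative, 401 in HSC1, 568 in HPC1, 589 in MPP2-containing, 512 in HSC2/MPP4 and 292 for CD48-negative HSC2 (CPM). Uqcrh, the hinge protein, was at 909, 859, 826, 747, 725 and 628 CPM, lower in each library than in the one before it. HSC1 was lowest for Uqcrfs1 and Uqcrc2, and CD48-negative HSC2 was lowest for the other 6 genes of this complex.

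Complex IV, cytochrome c oxidase, has several subunits with a second gene that is mainly used in other tissues. Some of these second forms were near 0 and others were not. Cox4i1 was at 1449 in double-negative, 1495 in HSC1, 1616 in HPC1, 1411 in MPP2-containing, 1264 in HSC2/MPP4 and 1055 for CD48-negative HSC2 (CPM), whereas Cox4i2, known from lung and low oxygen, was at 7.08, 4.78, 5.58, 4.06, 0.765 and 7.56 CPM. Cox4i2 was counted in 2 to 12 cells per library, and 1 cell held 42.9 to 66.7% of its counts in each. Cox6a1 was at 893, 791, 1216, 1214, 787 and 566 CPM. Cox6a2, the form of heart and muscle, had no count in 4 libraries, which allows up to 0.303 CPM in double-negative, 0.462 in HSC1, 0.261 in HPC1 and 1.08 in CD48-negative HSC2. It was at 0.666 CPM in MPP2-containing, all from 1 cell, and at 17.6 CPM in HSC2/MPP4, from 7 of 89 cells with 52.2% in 1 of them. Cox7a1, the other muscle form, was at 1.32, 0, 0.0871, 4.06, 5.86 and 0.720 CPM. Its 61 counts in MPP2-containing came from 9 cells and the 23 counts in HSC2/MPP4 from 6.

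Cox6b1 was at 1256, 1227, 1447, 1609, 884 and 789 CPM in library order. Its paralogue Cox6b2, known from testis, was present in every library, at 194, 145, 168, 205, 102 and 96.1 CPM. Both were lowest in CD48-negative HSC2, and the 3' end of Cox6b2 shares no 50-base stretch with another gene. Cox8a was at 1548, 1602, 1815, 1768, 1234 and 1002 CPM, and the tables have no row for Cox8b, Cox8c or Ndufa4l2. Ndufa4, first assigned to complex I and now known as a complex IV subunit, was at 1116, 1297, 1213, 1863, 1445 and 776 CPM. Cox5a, a matrix-side subunit, was at 127, 133, 121, 171, 234 and 90.7 CPM, with HSC2/MPP4 highest and CD48-negative HSC2 lowest.

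Cox7a2 (chr9:79755361-79759878, minus strand) and Cox7a2l (chr17:83501918-83517330, minus strand) differed in order. Cox7a2, the common subunit of the enzyme, was at 680.5 in double-negative, 718 in HSC1, 838 in HPC1, 1072 in MPP2-containing, 579 in HSC2/MPP4 and 502 for CD48-negative HSC2 (CPM). Cox7a2l, a relative that ties complexes III and IV into supercomplexes, was at 379 in double-negative, 398 in HSC1, 315 in HPC1, 284 in MPP2-containing, 363 in HSC2/MPP4 and 416 for CD48-negative HSC2 (CPM). C57BL/6 mice are known to carry a shortened form of this protein, which 3' counts do not tell apart. Cox7a2 was highest and Cox7a2l lowest in MPP2-containing, and Cox7a2 was lowest and Cox7a2l highest in CD48-negative HSC2. The 3' ends of both genes share no 50-base stretch with another gene.

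**Figure D3:**
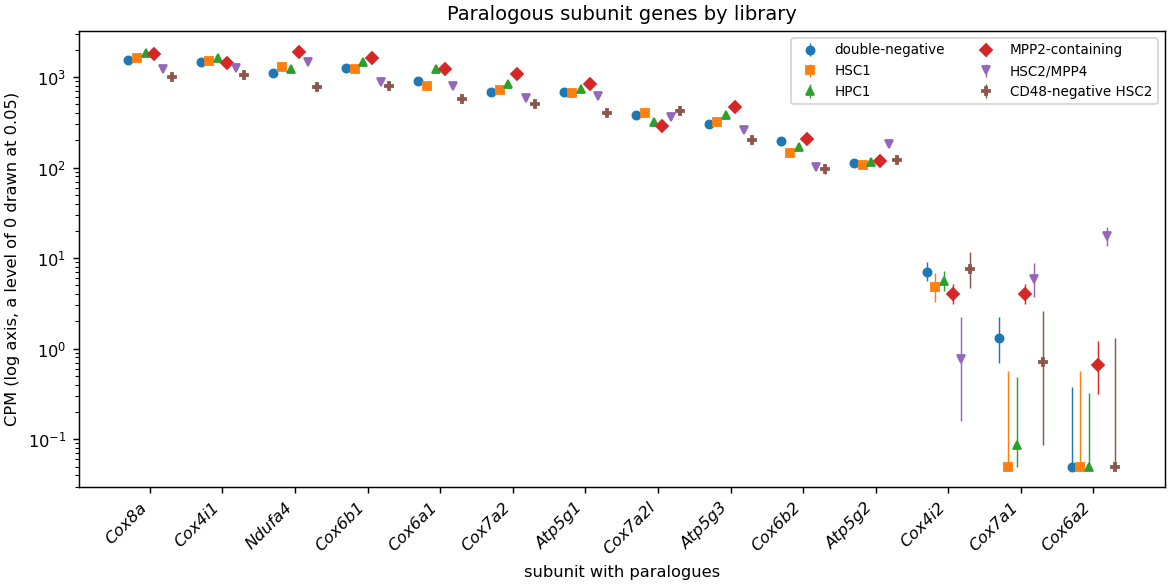
Levels of complex IV and ATP synthase subunits with paralogues (horizontal axis) in the 6 libraries (symbols), as CPM on a log axis with a level of 0 drawn at 0.05, and bars giving 95% counting intervals. Cox4i2, Cox7a1 and Cox6a2 lie far below the other genes in every library, and Cox7a2l is highest in CD48-negative HSC2 (416 CPM) and lowest in MPP2-containing (284 CPM).

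In complex V, the catalytic subunits were at 853, 673, 719.7, 808, 895 and 699.6 CPM for Atp5a1 (alpha) and at 1049.8, 897, 1139, 1269, 1317 and 886 CPM for Atp5b (beta), in library order. The membrane ring is built of subunit c, which has 3 genes with the same mature protein. Atp5g1 was at 682, 663, 744, 835, 618 and 399 CPM, Atp5g3 at 301, 315, 376, 460.00, 260.2 and 203 CPM and Atp5g2 at 112, 108, 116, 118, 183 and 121 CPM. Atp5g1 and Atp5g3 were highest in MPP2-containing and lowest in CD48-negative HSC2, while Atp5g2 was highest in HSC2/MPP4. Atp5k, subunit e, which holds ATP synthase dimers together, was at 859 in double-negative, 839 in HSC1, 965 in HPC1, 1347 in MPP2-containing, 677 in HSC2/MPP4 and 530.1 for CD48-negative HSC2 (CPM). Atp5l, subunit g, was at 20.6, 63.2, 28.9, 30.5, 24.5 and 25.6 CPM, but 1 HSC1 cell held 79.0% of its counts in that library.

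Of the 4 comparisons between libraries, the first asked how the HPC1 library compares with HSC1, the pair with matching gates, tissue label and RNA label. The median member was 0.14 higher on the log2 scale (log2 ratio of CPM + 10), and 66 of 84 were above 0. Complex III had the highest median (0.26, 7 of 8 above 0), followed by complex I (0.19, 31 of 36), complex V (0.15, 13 of 16), complex IV (0.10, 12 of 16) and complex II (0.06, 2 of 4). With 1 library a side no test was possible, and a gene was counted as different only past 1.5-fold. That held for 1 gene upward, Cox6a1 (0.61), where 8.56% of all 12179 genes passed, and for 1 downward, Atp5l (-0.91), where 10.1% passed. The share of members past 1.5-fold was thus below that of all genes in both directions. The next highest were Ndufa1 (0.52), Ndufa11 (0.52) and Uqcrq (0.49), all accessory subunits. The next lowest were Sdhaf2 (-0.49), Atp5s (-0.48) and Cox7a2l (-0.33). The Atp5l difference had the opposite sign, 0.59, once the highest cell of each library was left out. Among cells of 20000 to 80000 counts the median member was at 0.04. S phase genes had a median of 0.42 (29 of 30 above 0), G2/M genes of 0.71 (25 of 26) and HSC genes of -0.32 (7 of 23).

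The MPP2-containing library was set against double-negative, both labelled bone marrow and polyA RNA. The median member was 0.17 higher and 64 of 84 were above 0, with medians of 0.31 in complex IV, 0.27 in complex V, 0.23 in complex II, 0.12 in complex I and 0.10 in complex III. Past 1.5-fold were 4 genes upward, where 8.62% of all genes passed, and 0 downward, where 10.2% passed. The 4 were Ndufa4 (0.73), Cox7a2 (0.65), Atp5k (0.64) and Atp5g3 (0.59). The lowest were Sdhaf2 (-0.58), Sdhaf4 (-0.55), Cox7a2l (-0.40) and Ndufa13 (-0.39). The 4 members of this rule that assemble complex II were all below 0. The soluble electron carrier Cycs, outside the rule, was at 131, 159, 218, 299.9, 288 and 159 CPM in library order, a log2 ratio of 1.13 here. S phase genes had a median of 0.64 (28 of 30 above 0) and G2/M genes of 1.10 (26 of 26), while HSC genes had -0.95 (1 of 23 above 0).

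The 2 later libraries share age, bone marrow and total RNA labels. In HSC2/MPP4 over CD48-negative HSC2 the median member was 0.35 higher, and 71 of 84 were above 0. All 8 complex III genes and all 4 complex II genes were above 0, with medians of 0.47 and 0.34. Complex V had a median of 0.46, complex IV of 0.35 and complex I of 0.30. Past 1.5-fold were 20 genes upward, 23.8% of the members where 8.00% of all genes passed, and 1 downward, Cox4i2 (-0.71), where 13.1% passed. The highest at 30 CPM or more were Cox5a (1.28), Ndufs5 (1.07), Ndufa9 (0.99), which sits where the arms of complex I meet, and Ndufb6 (0.98). The lowest were Atp5s (-0.55), Sdhaf4 (-0.46), Sdhaf2 (-0.37) and Ndufv3 (-0.27). The upward count was 11 with every cell weighted equally, 12 with cells thinned to 10000 counts and 5 when log values were averaged over cells. No share of all genes is given under these alternatives, so these counts have no background beside them. The subunits encoded by mitochondrial DNA had a median of 0.02. S phase genes had a median of 0.87 (29 of 30 above 0), G2/M genes of 0.67 (26 of 26) and HSC genes of -1.28 (2 of 23). The part of these lists in the members' difference was not tested between libraries.

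CD48-negative HSC2 was set against double-negative, and both libraries were sorted as CD48- cells. They differ in gate, since double-negative also took cells of the HPC1 progenitor gate. They differ in CD201 as well, since only CD48-negative HSC2 included CD201+ cells. The median member was lower by 0.54 on the log2 scale (-0.54), and 9 of 84 were above 0. The medians were -0.58 in complex I, -0.54 in complex IV, -0.53 in complex V, -0.50 in complex III and -0.29 in complex II. Past 1.5-fold were 38 genes downward, 45.2% of the members where 11.3% of all genes passed, and 0 upward, where 13.5% passed. The lowest were Ndufs5 (-1.15), Ndufb5 (-1.13), Ndufb3 (-1.08) and Cox6b2 (-0.94). Those above 0 included Atp5s (0.27), Atp5l (0.21), Sdha (0.20), Sdhaf2 (0.19), Uqcrfs1 (0.18), Cox4i2 (0.04), Atp5g2 (0.10) and Cox7a2l (0.13). These libraries differ in RNA label and in depth, with median totals of 23540 and 105225 counts per cell. Among cells of 20000 to 80000 counts the median was -0.43, with 28 genes past 1.5-fold downward. The share of all genes in that window is not given. S phase genes had a median of -0.20 (11 of 30 above 0), G2/M genes of -0.27 (5 of 26) and HSC genes of -0.40 (9 of 23). The HSC genes ranged from -2.95 to 3.47. Their sum went the other way, with 5684 CPM in CD48-negative HSC2 and 4172 in double-negative.

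**Figure D4:**
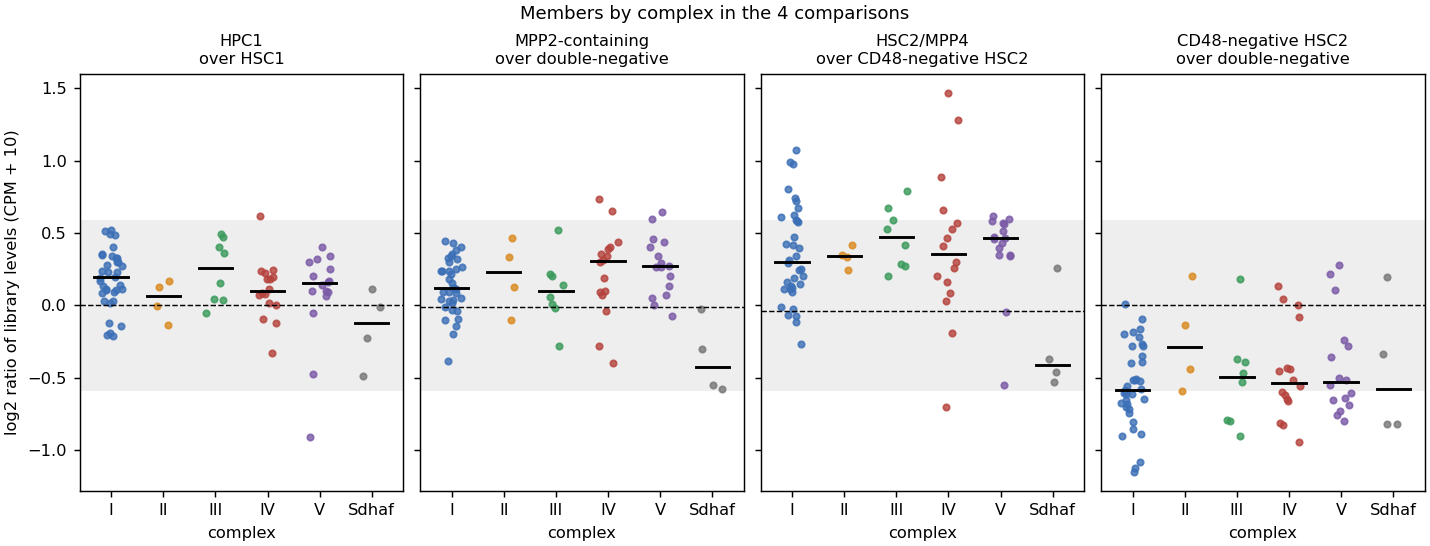
Log2 ratio of the library levels (CPM + 10, vertical axis) of each member in the 4 comparisons (panels), by complex (horizontal axis), with the median as a black bar, the range within 1.5-fold shaded and the median of all genes dashed. Most members lie above the dashed line in the first 3 panels, and 9 of 84 lie above 0 in CD48-negative HSC2 over double-negative.

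The other genes of mitochondria did not all follow. In CD48-negative HSC2 over double-negative, the 77 mitochondrial ribosomal protein genes had a median of -0.46, with 29 past 1.5-fold downward and 1 upward. Mrpl40 was the lowest at -1.58. The 43 assembly factors had a median of -0.40 with 15 downward, Coa6 being lowest (-1.27). Among 9 electron carriers and subunits outside the rule, 5 were past 1.5-fold downward, including Atpif1 (-0.93), the inhibitor of ATP synthase. The 9 subunits encoded by mitochondrial DNA that have a row had a median of -0.01. The 20 citric acid cycle genes were at -0.12 and the 16 mitochondrial biogenesis genes at -0.03. Among biogenesis genes at 30 CPM or more in 1 of the 2 libraries, Tfam was lowest (-0.42). The 14 stress and redox genes had a median of -0.01, with 4 past 1.5-fold downward. The 18 glycolysis genes had a median of 0.19, from Ldha (-0.72) to the glucose transporter Slc2a3 (0.80). The 80 cytosolic ribosomal protein genes had a median of 0.01 and the 39 proteasome genes of -0.30. The 10 genes of a list of Pdk and hypoxia genes had a median of 0.02. Hif1a was highest (0.99) among those at 30 CPM or more in 1 of the 2 libraries.

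In the other comparisons the mitochondrial ribosome had medians of 0.17 (HPC1 over HSC1), 0.12 (MPP2-containing over double-negative) and 0.19 (HSC2/MPP4 over CD48-negative HSC2), beside 0.14, 0.17 and 0.35 for the members. The median over all genes was 0.00, -0.01, -0.04 and 0.00 in the 4 comparisons. The mitochondrial gene mt-Nd3, a complex I subunit, stood apart from the other 8 subunits encoded by mitochondrial DNA, at 4.15, 10.0, 178, 464, 329.8 and 275 CPM in library order. It was low in double-negative and HSC1, where 28 and 38 cells had a count. The other 8 stayed within 1.5-fold in every one of the 4 comparisons. In double-negative, in HSC1 and in HPC1, 1 of these 8 had no count, and a ratio of CPM + 10 says little for it.

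RNA of mature blood cells was also counted. The 9 neutrophil genes summed to 785, 309.6, 4374, 2763, 5203 and 6809 CPM in library order, and 4 haemoglobin genes to 351, 678, 4460, 285, 175 and 2692 CPM. In the HSC2/MPP4 library 1 cell held 98.8% of the neutrophil counts, and in CD48-negative HSC2 1 cell held 95.8%. Of the 9, Retnlg had no count in double-negative or CD48-negative HSC2 and Mmp8 none in either later library, while S100a8, S100a9, Lcn2, Camp, Ngp and Ltf were counted in every library. Leaving out cells with at least 1% of such counts (1, 0, 7, 3, 1 and 3 in library order) gave member medians of 0.18, 0.18, 0.36 and -0.51 in the 4 comparisons, in the order described.

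Within each library, cells could be compared with each other, and the test then took the library as its unit. The 6 libraries are different sorted populations and not replicates of a condition. Some share gates and the number of mice is not given, so whether their values are independent is not known. Cells were split at the library's median share of 30 S phase and 26 G2/M genes, none of which is a respiratory chain gene. Cells above the median had higher summed respiratory chain levels in all 6 libraries. No call of this split, for the members or any other list, held when cells were instead split within pairs of neighbouring depth. Those values follow the unpaired ones. The upper and lower cells were at 40685 and 34952 CPM in double-negative, 39647 and 32337 in HSC1, 45243 and 33123 in HPC1, 45653 and 41866 in MPP2-containing, 36825 and 28284 in HSC2/MPP4, and 27192 and 23441 in CD48-negative HSC2. The mean log2 difference was 0.28 ± 0.12 (SD, n = 6 libraries; exact two-sided sign-flip permutation test, p = 0.03125, the smallest it can give; adjusted p = 0.0406 over 13 gene lists). An adjusted p here depends on how many of the other lists or differences also reach the smallest p. The members and their complexes share genes, so these lists are not separate. The difference was 0.22 ± 0.09 in complex I, 0.27 ± 0.14 in complex III, 0.30 ± 0.13 in complex IV and 0.35 ± 0.15 in complex V, each in 6 of 6 libraries with the same exact adjusted p of 0.0406. Complex II, at 0.22 ± 0.22, was higher in 5 of 6 (exact p = 0.09375, adjusted 0.0938). Complex V rose more than complex I in 6 of 6 libraries, by 0.13 ± 0.09 (exact p = 0.03125, adjusted p = 0.0357 over 8 differences).

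Other lists differed between these cells too. The mitochondrial ribosome rose by 0.20 ± 0.10 and the proteasome by 0.25 ± 0.11, both in 6 of 6 libraries (exact adjusted p = 0.0406). Subunits encoded by mitochondrial DNA fell in 6 of 6, with a mean of -0.09 ± 0.07, and so did cytosolic ribosomal protein genes, with -0.19 ± 0.13 (exact adjusted p = 0.0406 for each). Nuclear members minus mitochondrially encoded subunits gave 0.37 ± 0.17, above 0 in 6 of 6 (exact p = 0.03125, adjusted 0.0357). Members minus the proteasome gave 0.03 ± 0.08, above 0 in 4 of 6 (exact p = 0.406), so a difference between these 2 lists was not shown. Assembly factors rose by 0.08 ± 0.09 in 6 of 6 (exact adjusted p = 0.0406). Citric acid cycle genes were at 0.16 ± 0.13 (5 of 6, exact adjusted p = 0.0739) and glycolysis genes at 0.11 ± 0.14 (5 of 6, exact adjusted p = 0.0938).

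Cells differed in depth along with the split. The upper cells had median totals of 174416 against 95130 counts in HPC1, 197880 against 107185 in MPP2-containing, 44013 against 25666 in HSC2/MPP4 and 28695 against 14598 in CD48-negative HSC2. In HSC1 the totals were alike (62986 and 63263), and in double-negative the upper cells were shallower (99810 and 113973). The log2 difference of the members was 0.29 and 0.22 in these 2 libraries. When cells of neighbouring depth were paired and split within pairs, the mean was 0.14 ± 0.08, higher in 5 of 6 libraries with -0.01 in MPP2-containing, and the call was lost (exact permutation p = 0.0625, adjusted p = 0.102). The paired difference was 0.22 in HSC1 and 0.11 in double-negative. Pairing took the cell with the larger share in each pair as high, so it changed the split as well as depth. How far the cell cycle genes differed within pairs is not given, and the part of depth in the loss was not tested. With pairing, complexes III and V were higher in 6 of 6 libraries, at 0.13 ± 0.09 and 0.17 ± 0.09 (exact p = 0.03125, adjusted p = 0.102). Neither passed after adjustment, but at this smallest p a list can pass only where many other lists reach it too. Complex I was at 0.10 and complex IV at 0.16, each higher in 5 of 6 (exact adjusted p = 0.102). The mitochondrial ribosome was at 0.081 and the proteasome at 0.12, each higher in 5 of 6, and the cytosolic ribosomal protein genes were at -0.066, lower in 5 of 6 (exact adjusted p = 0.102 for each). The mitochondrially encoded subunits were at -0.040 (5 of 6 lower, exact p = 0.15625) and the assembly factors at 0.012 (3 of 6 higher, exact p = 0.6875). Members minus mitochondrially encoded subunits gave 0.18 ± 0.09, above 0 in 6 of 6, and did not pass (exact p = 0.03125, adjusted p = 0.0833). Complex V minus complex I gave 0.070 ± 0.080, above 0 in 4 of 6 (exact p = 0.125, adjusted p = 0.143).

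**Figure D5:**
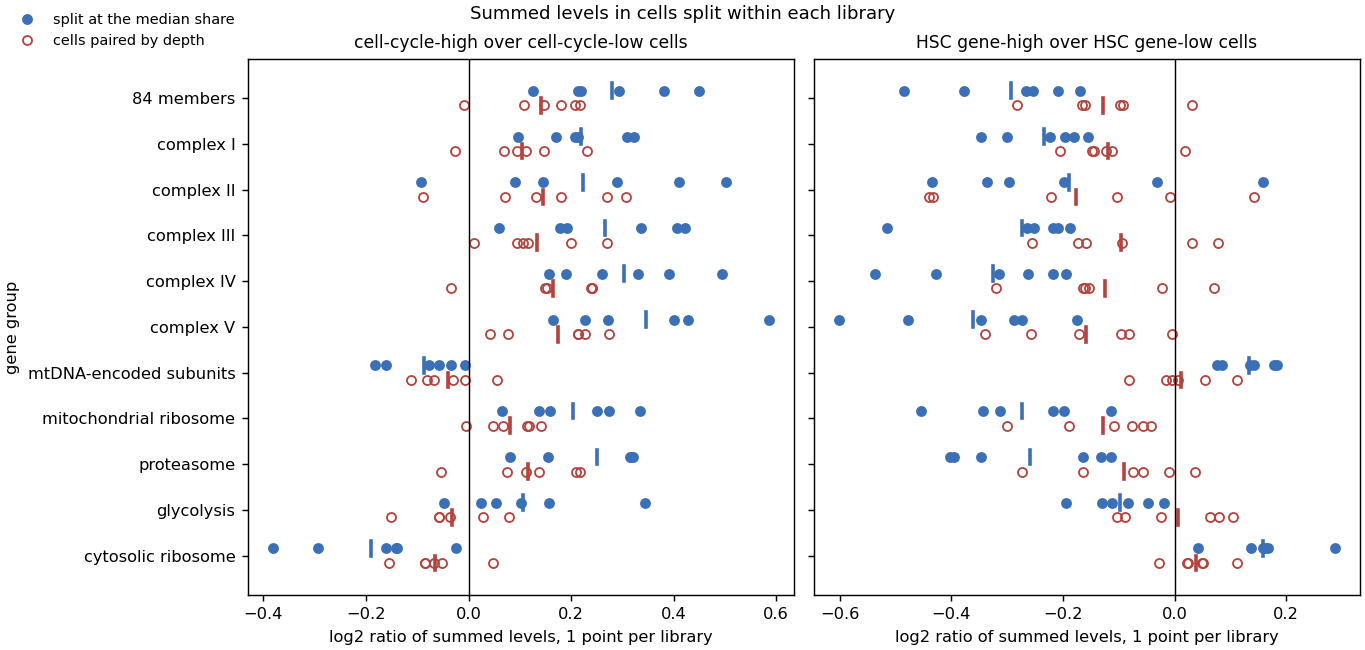
Log2 ratio of summed levels between cells high and low in cell cycle genes (left) or HSC genes (right), 1 point per library (n = 6), for the members, their complexes and other lists (vertical axis), with filled points for the split at the median, open points for cells paired by depth and the mean as a short bar. All 6 filled points of the members lie above 0 on the left and below 0 on the right, and the open points lie nearer to 0.

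Single genes were counted by whether they differed the same way in all 6 libraries. In cells high in cell cycle genes, 31 of 84 members (36.9%) were higher in all 6, where 6.46% of all genes were, and 2 (2.38%) were lower in all 6, where 4.40% were. Most members are well counted, and among all genes at 30 CPM or more in the median library these shares were 11.2% and 6.29%. The 31 included 10 of 16 in complex V, 8 of 16 in complex IV, 4 of 8 in complex III, 9 of 36 in complex I and 0 of 4 in complex II. With cells paired by depth, 18 of 84 (21.4%) were higher in all 6, where 3.89% of all genes were, and 1 was lower, where 2.52% were. The share of genes at 30 CPM or more is not given with pairing. Of the 18, 8 encode complex V subunits: Atp5a1, Atp5b, Atp5e, Atp5g1, Atp5g2, Atp5h, Atp5k and Atp5o. The others were Ndufa11, Ndufab1, Ndufb7, Ndufc2, Ndufv1 and Ndufv2 of complex I, Uqcrq of complex III, and Cox5b, Cox7a2 and Ndufa4 of complex IV.

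By median log2 ratio the highest members were Cox5a (0.79), Uqcrq (0.73), Cox7a2 (0.68) and Ndufb7 (0.59). Uqcrq gave 0.67, 0.80, 1.12, 0.36, 0.95 and 0.39 in library order, above 0 everywhere. Cox7a2 gave 0.83, 0.57, 0.71, 0.32, 0.68 and 0.68, also above 0 everywhere. With pairing by depth, their medians were 0.44 and 0.21 and that of Ndufb7 was 0.33, all 3 above 0 in 6 of 6 libraries. Cox5a was the least even, at 0.75, 1.06, 1.10, 0.08, 0.83 and 0.14, and with pairing it was above 0 in 3 of 6 libraries. The lowest members were Cox7a2l (-0.33), Sdhaf2 (-0.25), Uqcrh (-0.16) and Ndufs4 (-0.14), the last an accessory subunit needed to assemble complex I. Cox7a2l gave -0.12, -0.68, -0.73, -0.20, -0.23 and -0.42 and Sdhaf2 gave -0.25, -0.16, -0.35, -0.13, -0.34 and -0.25, below 0 in all 6 libraries. With pairing by depth, Sdhaf2 was below 0 in 6 of 6 and Cox7a2l in 4 of 6.

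The second split used the library's median share of 23 HSC genes, such as Procr (which encodes CD201), Mecom and Hlf. CD201 also divided the gates mixed in some libraries, and the part of the gates in this split was not tested. Cells high in HSC genes had lower summed respiratory chain levels in all 6 libraries. Here too no call for any list held with pairing by depth, whose values are given after the unpaired ones. The upper and lower cells were at 33929 and 40824 CPM in double-negative, 30809 and 40028 in HSC1, 32811 and 45923 in HPC1, 39888 and 46129 in MPP2-containing, 30099 and 35874 in HSC2/MPP4, and 24166 and 27168 in CD48-negative HSC2. The mean log2 difference was -0.29 ± 0.12 (SD, n = 6; exact two-sided sign-flip permutation test, p = 0.03125, adjusted p = 0.0339 over 13 lists). Complex I fell with a mean of -0.23 ± 0.07, complex III with -0.27 ± 0.12, complex IV with -0.33 ± 0.13 and complex V with -0.36 ± 0.15, each in 6 of 6 libraries (exact adjusted p = 0.0339). Complex II was at -0.19 ± 0.22, lower in 5 of 6 (exact p = 0.09375, adjusted 0.0938). Both splits used the same cells and are not separate evidence.

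Subunits encoded by mitochondrial DNA rose by 0.13 ± 0.05 in cells high in HSC genes, in 6 of 6 libraries, and cytosolic ribosomal protein genes by 0.16 ± 0.08 (exact adjusted p = 0.0339 for each). The mitochondrial ribosome fell with a mean of -0.27 ± 0.12, the proteasome with -0.26 ± 0.14, citric acid cycle genes with -0.21 ± 0.10, assembly factors with -0.16 ± 0.13 and glycolysis genes with -0.10 ± 0.06, each in 6 of 6 (exact adjusted p = 0.0339). Members minus mitochondrially encoded subunits gave -0.43 ± 0.13, below 0 in 6 of 6 (exact p = 0.03125, adjusted 0.05 over 8 differences). Members minus the mitochondrial ribosome gave -0.02 ± 0.08, below 0 in 5 of 6 (exact p = 0.594).

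Depth differed here too, with medians of 106625 against 258273 counts in MPP2-containing and 95130 against 164116 in HPC1. In CD48-negative HSC2 the cells high in HSC genes were the deeper ones (27741 against 19196), and the members were lower by 0.17 on the log2 scale (-0.17). With cells paired by depth the mean was -0.13 ± 0.10, lower in 5 of 6 libraries, and the call was lost (exact permutation p = 0.0625, adjusted p = 0.203). Pairing changed the split as well as depth here too, and the part of each was not tested. Complex I was then at -0.12 and complex IV at -0.13, each lower in 5 of 6, complex III at -0.095, lower in 4 of 6, and complex V at -0.16, lower in 6 of 6 (exact adjusted p = 0.203 for I, IV and V and 0.226 for III). The mitochondrial ribosome was at -0.13, lower in 6 of 6, and the proteasome at -0.090, lower in 5 of 6 (exact adjusted p = 0.203 for each). Citric acid cycle genes were at -0.079 (exact p = 0.1875), assembly factors at -0.073 (3 of 6 lower, exact p = 0.28125) and glycolysis genes at 0.0055 (3 of 6 lower, exact p = 0.9375). The mitochondrially encoded subunits were at 0.01 ± 0.07, higher in 3 of 6 (exact p = 0.688), and the cytosolic ribosomal protein genes at 0.038, higher in 5 of 6 (exact p = 0.125). Members minus mitochondrially encoded subunits gave -0.14 ± 0.10, below 0 in 5 of 6 (exact p = 0.0625, adjusted p = 0.125).

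In cells high in HSC genes, 34 of 84 members (40.5%) were lower in all 6 libraries, where 6.19% of all genes were, and 1 was higher in all 6, where 5.42% were. Among all genes at 30 CPM or more in the median library, 11.7% were lower and 7.63% higher in all 6, a share not given with pairing. The 34 included 9 of 16 in complex V, 9 of 16 in complex IV, 13 of 36 in complex I and 3 of 8 in complex III. With cells paired by depth, 6 of 84 (7.14%) were lower in all 6, where 2.34% of all genes were: Ndufa1, Ndufa9, Ndufb8, Ndufb10, Sdhb and Cox6b2. Only 1 was higher in all 6, where 2.55% were. It was Cox7a2l, the same gene as without pairing.

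Cox7a2l gave 0.11, 0.75, 0.74, 0.67, 0.06 and 0.21 in library order, above 0 in each, with a median of 0.44 and of 0.34 with pairing by depth. Cox7a2 gave -0.84, -0.56, -0.71, -0.25, -0.64 and -0.40, below 0 in each, with a median of -0.60. With pairing by depth Cox7a2 was below 0 in 5 of 6 libraries, at a median of -0.14. After Cox7a2l, the highest were Sdhaf2 (0.29, range -0.33 to 0.92), Uqcrh (0.20) and Ndufa13 (0.18), and none of these was above 0 in all 6. The lowest were Uqcrq (-0.68), Atp5g1 (-0.65), Cox7a2 and Ndufb8 (-0.59), each below 0 in 6 of 6 libraries.

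Across the cells of a library, the share of member counts and that of the mitochondrial ribosome had a Spearman's rho of 0.41 (CD48-negative HSC2, 86 cells) to 0.74 (HSC2/MPP4, 89 cells). With the cytosolic ribosome rho was -0.38 to -0.17, and with the mitochondrially encoded subunits -0.29 to -0.09. With the cell's total count it was 0.17 to 0.56. These values describe the 76 to 89 cells of each library, which share that library and its range of depth, and shares of 1 total are not independent of each other.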

How the data were processed

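Transcripts of 497 single cells in 6 libraries were read from 3 deposited tables of scores. Per the submitters' processing notes TopHat, HTSeq and mm10 were used. The sources used here do not give versions, annotation, cell filter, normalization or whether reads or molecules were counted. From the values, the deposited scores have mean 0 and SD 1 within a gene over all cells and are capped at 10. Both later tables carry no gene names and were tied to the first line by line, since a gene's mean and SD take these values only over the 3 tables together. In all, 6 blank lines were dropped.

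Counts were rebuilt by undoing the scaling, the fit on 2 cell covariates and a log of counts per 10000. This worked for 12179 of 13278 genes, all 84 members among them, and 100% of values up to 50 were whole within 0.01. The 1099 other genes have no level here. The rebuilt genes account for 94.7 to 99.4% of the counts per cell, with a median of 96.7%. The steps were tested on simulated data in which the totals of the shallowest cells had been raised to a lower limit. They were thus not tested at the depth of the shallowest cell, 530 counts in HSC2/MPP4. With some other limits the scale of a few simulated cells was weakly determined. Library totals were 2778858 to 15019501 counts. Levels are sums over a library's cells per 1000000 of its total (CPM). Exact 95% Poisson intervals cover counting error only, as does the limit of 3 counts for a count of 0. Log2 ratios add 10 CPM. No cell was left out, clustered or called a doublet.

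With 1 library per group no test between libraries was possible. Splits of cells within libraries were tested over the 6 libraries with an exact two-sided sign-flip test and Benjamini-Hochberg adjustment over 13 lists. These p-values measure the spread between these libraries, which are different sorted populations. In both splits a list passes adjustment only where many other lists also reach the smallest p. Passing is thus no measure of that list alone. Genes were named by rule: the 4 highest and 4 lowest members of each comparison or split at 30 CPM or more, complex II, the complex I core, paralogues, and the extremes of other lists. One member's own values are not reported here; it is kept in the sums, medians and counts. Members and lists were chosen with earlier results of these data known. Tests of differences between lists, and pairing by depth for lists other than all members, were added after seeing the data. Alternatives changed the pseudocount, level filter, weighting of cells, depth and libraries used. Positions are from GENCODE vM21 and promoters from RefSeq (GRCm38.p6). Python 3.11.15, numpy 2.4.6, scipy 1.17.1 and pandas 2.3.3 were used.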

Additional observations from a re-analysis of the deposited data

How the results depend on the processing

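The direction of the median member stayed the same in all 4 comparisons under every alternative run, at 0.036 to 0.18, 0.069 to 0.20, 0.23 to 0.40 and -0.57 to -0.41. Windows of depth and leaving out the cells numbered 41, cells rich in neutrophil and haemoglobin counts or the Sdhaf genes were chosen after seeing the data. The cause of the shifts was not tested. For HPC1 over HSC1 the median was 0.051 as deposited scores, 0.077 with cells thinned to 10000 counts and 0.036 in cells of 20000 to 80000 counts. Its upward count was 2 with cells weighted equally, without each gene's highest cell or thinned, and 4 in the depth window. Its downward count was 0 with cells weighted equally, without the highest cell or with log values averaged, and 2 in the window. Atp5l reversed to 0.59 without the highest cell, 0.72 without the deepest 10% of cells, 0.029 with log values averaged and 0.54 in the window. For MPP2-containing over double-negative the median was 0.069 as deposited scores. Its upward count was 2 with log values averaged and 8 in the window, and its downward count 3 with a pseudocount of 1 CPM and 2 in the window. For HSC2/MPP4 over CD48-negative HSC2 the median was 0.27 with cells weighted equally, 0.25 with log values averaged and 0.23 thinned. Its upward counts were then 11, 5 and 12. Its downward count was 0 without the highest cell, with log values averaged or at 30 CPM or more, 3 with a pseudocount of 1 CPM or thinned, and 2 in the window or without cells rich in neutrophil and haemoglobin counts. For CD48-negative HSC2 over double-negative the median was -0.41 as deposited scores and -0.43 in the window. The cell cycle split lost its call with cells paired by depth (0.14), as deposited scores (0.15) and with the top 25% of cells against the rest (0.21), each higher in 5 of 6 libraries (exact permutation p = 0.0625). The HSC gene split lost it with cells paired by depth (-0.13, exact p = 0.0625) and as deposited scores (-0.15, exact p = 0.125). Leaving out 1 library gave 0.25 to 0.31 and -0.32 to -0.26, with an exact p of 0.0625, the smallest 5 libraries can give. Of all alternatives run for the medians, counts and split means, 124 left the result as it was, 31 moved a value and 17 ended a call, 12 of them by leaving out 1 library. No paired analysis was possible because each group is 1 library. Deposited scores have no fold, so no counts past 1.5-fold were made from them. The counts under the other alternatives stand without the share of all genes, which can change with the processing too. Depth limits CD48-negative HSC2 most, where 3 counts are 1.08 CPM.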
